A study of Mus musculus with 6 samples.

Results

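Mammalian cells take up iron, store it, use it and export it through a small set of proteins, and 10 genes of this set are described here: the copper-dependent ferroxidase genes Hephl1, Heph and Cp, the transporter genes Slc40a1 and Slc11a2, the transferrin receptor gene Tfrc, the ferritin genes Fth1 and Ftl1, and the iron sensor genes Ireb2 and Aco1. They were picked by name around Hephl1, whose rise was already known to be among the largest on these arrays, so their values here are given as a description of the genes and support nothing about their choice. All 10 were measured, among 21124 named genes. The arrays read RNA of the mouse cell line B/CMBA.Ov, whose labels give the tissue as ovary and the strain as BALB/c. On 3 arrays the cells had been transfected with a miR-15a-3p mimic, a synthetic double of that microRNA, and on 3 with a negative control mimic. Both groups received the lipid reagent RNAiMax and a final concentration of 20 nM, and RNA was taken after 48 h. A synthetic mimic is supplied from outside the cell, so the comparison addresses added and not native miR-15a-3p, in 1 cell line.

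Iron circulates bound to transferrin, which cells take up through the transferrin receptor. Ferrous iron leaves the endosome through the transporter encoded by Slc11a2, is stored in ferritin shells and leaves the cell through ferroportin, the product of Slc40a1. The multicopper ferroxidases oxidise exported ferrous iron so that transferrin can bind it. The iron regulatory proteins, encoded by Aco1 and Ireb2, bind RNA hairpins when iron is scarce, which stabilises the Tfrc transcript and blocks translation of the ferritin transcripts. An array of transcript levels sees the first of these effects and not the second.

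The mature microRNAs are shown because the mimic carries the sequence of the 3′ arm and not that of the better known 5′ arm of the same precursor. The sequences are from RefSeq on GRCm38.p6, written 5′ to 3′, with the seed (bases 2 to 8), the stretch that pairs with targets, in capitals.
mmu-miR-15a-3p (chr14:61632038-61632059, minus strand): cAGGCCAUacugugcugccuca
mmu-miR-15a-5p (chr14:61632075-61632096, minus strand): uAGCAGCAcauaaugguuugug
mmu-miR-16-5p (chr14:61631936-61631957, minus strand): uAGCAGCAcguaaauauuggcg
The latter 2 share the seed AGCAGCA, while the seed of the mimic is AGGCCAU. Target sites of this seed in the iron genes were not analysed here, and the sequence of the control mimic is not given in the labels.

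Each array gave log2 values with a median between 6.94 and 7.01, and no pair of arrays held identical values. Over transcript clusters, the correlation was 0.993 to 0.996 within groups and 0.989 to 0.993 between them. As nothing in the labels marks replicates as separate cultures, the p-values stand against an array spread that may be technical, and 3 arrays a group limit the precision. All 9 mesothelial and stromal markers had a mean no lower than the median of gene means (7.27), as did 5 of 8 epithelial markers, 2 of 8 macrophage markers, 1 of 6 erythroid markers, 1 of 5 hepatocyte markers, 0 of 8 granulosa and theca markers and 0 of 5 endothelial markers. The summed linear level of the mesothelial and stromal markers ran from 19193 to 19880 on the mimic arrays and from 22507 to 22834 on the control arrays, and that of the epithelial markers from 6438 to 7010 and from 5796 to 5810. At a limma adjusted p under 0.05, 4 of the former list fell and 1 rose (55.6%), and 2 of the latter fell and 3 rose (62.5%). Over all genes that share was 11.7%, and 19.2% over those with a mean no lower than the median of gene means. A sum of linear levels is weighted to the brightest genes. Among the mesothelial and stromal markers, log2 fold changes ran from -1.40 (Upk3b) to 0.34 (Pdgfra). The part of these marker shifts in the results below was not tested. In such bulk RNA, a change in the share of cells that use a gene and a change in RNA per cell cannot be told apart.

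Over all genes, 11.7% passed a limma adjusted p under 0.05, 6.09% as higher and 5.63% as lower with the mimic. The share was 19.2% among genes with a mean at or above the median and 4.22% among dimmer ones. Among the 10 iron genes 2 passed, both higher with the mimic: Hephl1 and Tfrc. Nothing is read from this count, as the first of them prompted the choice of genes. In 4 genes (Hephl1, Tfrc, Slc11a2 and Fth1) the 3 mimic arrays all lay above the 3 control arrays and in 1 (Ftl1) all lay below, while 29.6% of all genes had groups that did not overlap in either direction. The median log2 fold change of the 10 was 0.019, against 0.0065 over all genes tested.

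**Figure D1:**
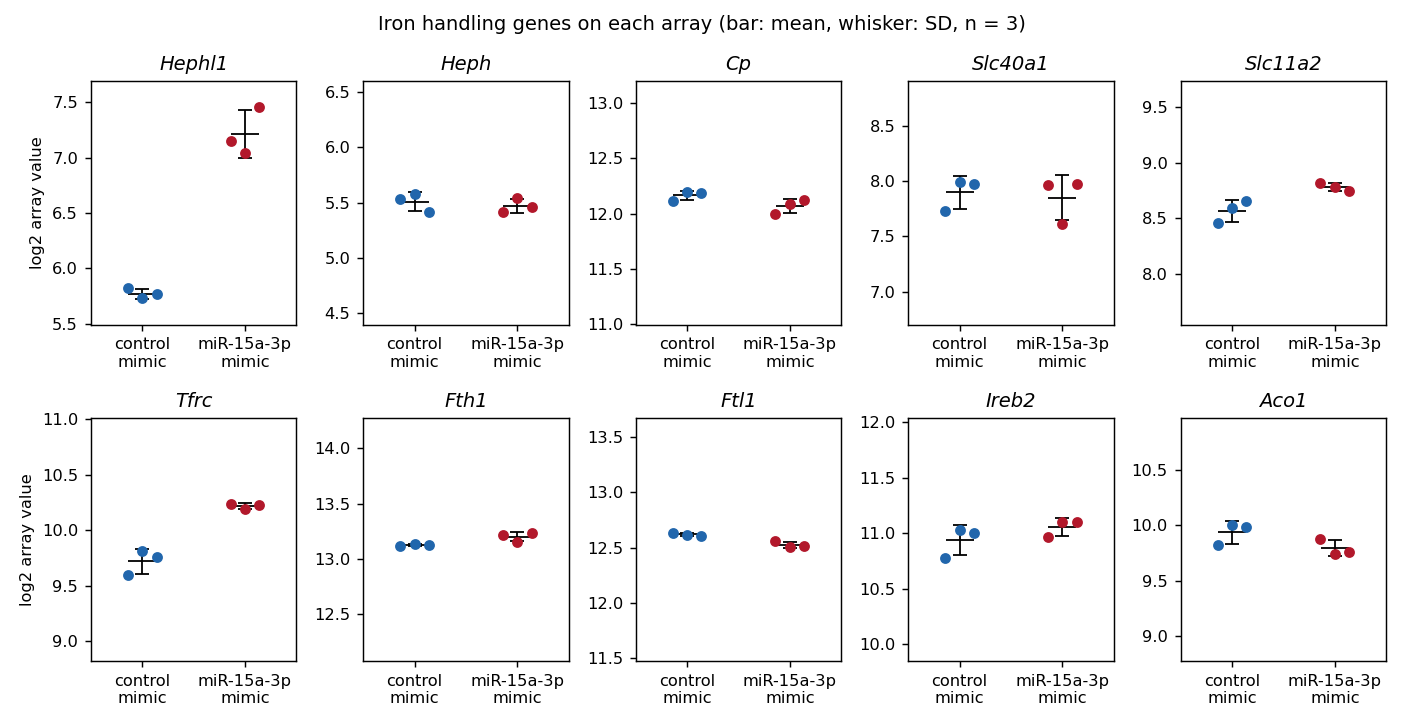
Log2 array value of each of the 10 genes on the 3 control mimic arrays (blue) and the 3 miR-15a-3p mimic arrays (red), with the mean (bar) and SD (whisker); every panel spans the same number of log2 units. Hephl1 stands clear of the control arrays, Tfrc by less, and Heph and Slc40a1 overlap.

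Of the 3 ferroxidase genes, Hephl1 alone stood clearly higher with the miR-15a-3p mimic, 2.72-fold. It encodes zyklopen, a membrane-bound ferroxidase known from placenta and hair follicles. Its log2 values (transcript cluster 10590992) were 7.15, 7.04 and 7.45 on the mimic arrays and 5.82, 5.73 and 5.77 on the control arrays. The groups lay more than 1 log2 unit apart, and the mimic arrays spread more widely (SD 0.215) than the control arrays (SD 0.0458). The log2 fold change was 1.44 ± 0.10 (SE, n = 3 per group), which ranked 7 among the rises of all genes. It was between 1.32 and 1.53 in all 13 alternative settings that kept the gene. The control mean of 5.77 lies well below the median of gene means, and without detection calls it is unknown whether the control level stood above background.

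The exon-level readings of Hephl1 ran one way along nearly the whole gene. Each of its 16 exon-level probe sets was, by the authors' deposited table, higher with the mimic, with ratios from 1.01 to 9.65 and a median of 2.91. Of these, 12 had an unadjusted p under 0.05 in the authors' deposited table, where 5.51% of all probe sets were higher at that p and 6.44% lower. The largest ratio in the authors' deposited table was that of the 13th probe set in ID order, and the smallest were those of the last 2, with 1.28 and 1.01. Hephl1 was picked for its rise and its probe sets read the same comparison, so these counts are no independent check.

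Heph, which encodes hephaestin, the ferroxidase of the gut wall, overlapped between the groups. Its log2 values were 5.42, 5.54 and 5.46 with the mimic and 5.53, 5.58 and 5.41 with the control. The log2 fold change was -0.037, with a 95% interval from -0.19 to 0.12 (limma adjusted p = 0.81). Its level lay below the median of gene means. Of its 26 exon-level readings in the authors' deposited table, 12 were higher, 2 of them at a p under 0.05, and 14 lower. A single probe set, the 5th in ID order, stood at a ratio of 2.46 in the authors' deposited table, and the median ratio was 0.967.

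Cp encodes ceruloplasmin, the ferroxidase of plasma, which also exists in a membrane-anchored form. Its log2 values were 12.00, 12.08 and 12.12 with the mimic and 12.11, 12.19 and 12.18 with the control. The groups overlapped by a single pair of arrays, and the log2 fold change was -0.095, with a 95% interval from -0.24 to 0.048 (limma adjusted p = 0.43). Of its 24 probe sets, 19 were lower in the authors' deposited table, 3 of them at a p under 0.05, and none was higher at that p (0 of 24). The intervals of Heph and Cp end below that of Hephl1, but Hephl1 was picked for its rise, so nothing is read from this. The difference between genes was not tested.

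**Figure D2:**
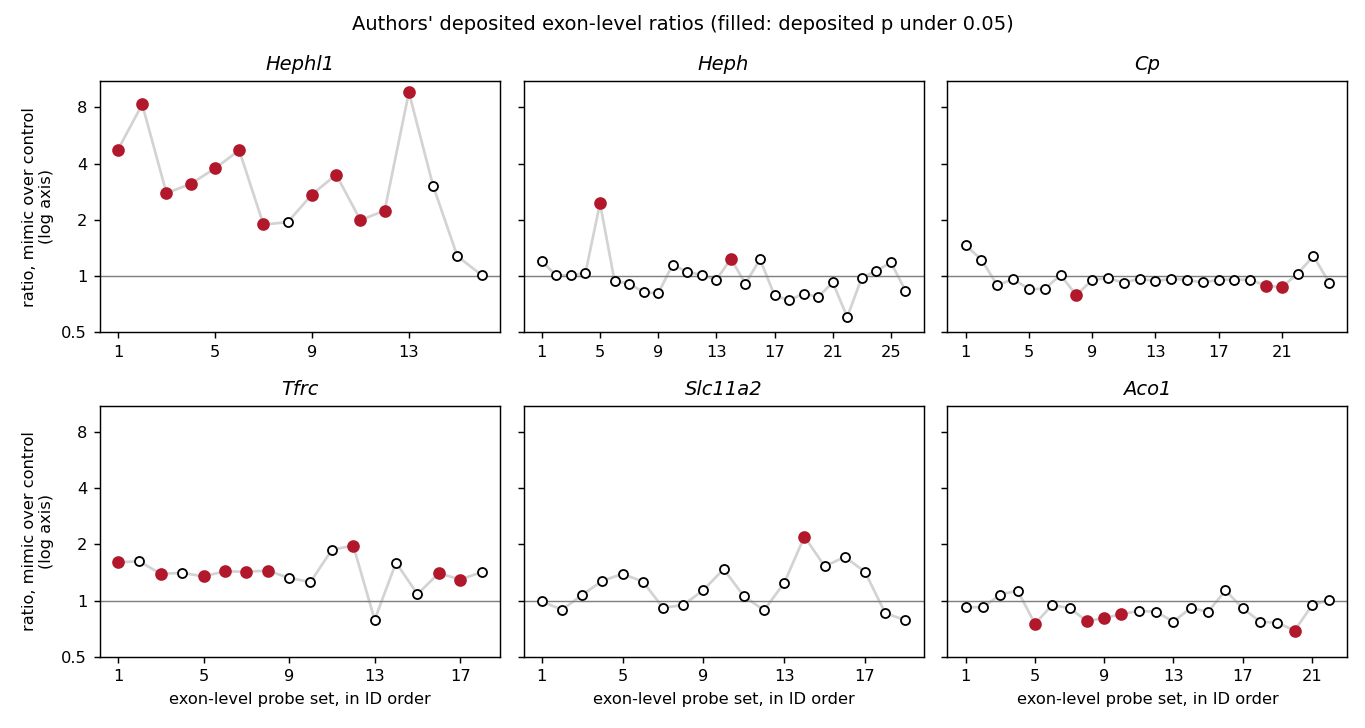
Ratio of miR-15a-3p mimic over control for each exon-level probe set in the authors' deposited table, on a log axis, in the order of probe set IDs; filled points had a deposited unadjusted p under 0.05. The probe sets of Hephl1 lie between 1.01 and 9.65 and 17 of the 18 of Tfrc above 1, while those of Heph lie on both sides of 1 and 19 of the 24 of Cp lie below it.

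The transferrin receptor gene Tfrc, the main entry for transferrin-bound iron, rose 1.41-fold with the mimic. Its log2 values (transcript cluster 10435075) were 10.24, 10.19 and 10.23 on the mimic arrays and 9.59, 9.81 and 9.76 on the control arrays. Every mimic array lay above every control array, and here the control arrays had the wider spread. The means were 10.22 ± 0.0268 and 9.72 ± 0.113 (SD, n = 3), and the log2 fold change was 0.50 ± 0.07 (SE; limma adjusted p = 0.0021). The call held in all 14 alternative settings, in which the limma adjusted p ran up to 0.016. Of its 18 exon-level readings in the authors' deposited table, 17 were higher and 9 of these had a p under 0.05, with a median ratio of 1.41.

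Slc11a2 encodes the transporter DMT1, which moves ferrous iron out of the gut lumen and out of endosomes. Its log2 values were 8.82, 8.78 and 8.75 with the mimic and 8.46, 8.59 and 8.65 with the control. The groups did not overlap, yet the nearest arrays were close, and the gene did not pass the test. The log2 fold change was 0.22, with a 95% interval from 0.061 to 0.37 that takes no account of multiple tests (limma adjusted p = 0.078). When only genes no lower than the median of gene means were tested, the limma adjusted p was 0.030. Slc11a2 passed in none of the other alternative settings, where the limma adjusted p ran up to 0.18. Of its 19 probe sets, 12 were higher in the authors' deposited table. The only one with a p under 0.05 in the authors' deposited table was the 14th in ID order, at a ratio of 2.20.

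Slc40a1 encodes ferroportin, the exporter that hands iron to the ferroxidases. Its log2 values were 7.96, 7.61 and 7.97 with the mimic and 7.73, 7.99 and 7.97 with the control. One array of each group lay low, and the others lay close together. The log2 fold change was -0.047, with a 95% interval from -0.29 to 0.20 (limma adjusted p = 0.85), and its direction turned to 0.070 without mimic replicate 2. Its interval was the widest of the 10 genes.

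**Figure D3:**
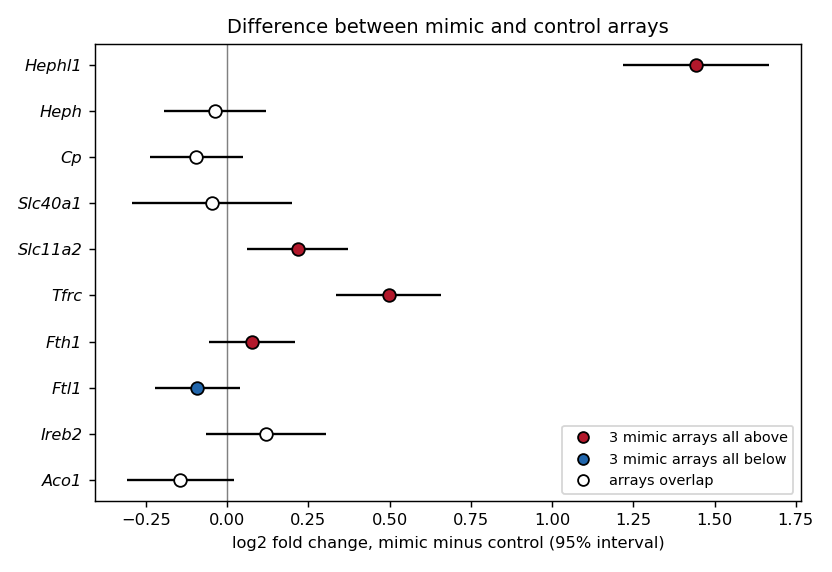
Log2 fold change, miR-15a-3p mimic minus control, of the 10 genes with the 95% interval of the limma fit (horizontal line), unadjusted for multiple tests; the fill shows whether the 3 mimic arrays all lay above (red) or below (blue) the control arrays. Hephl1 at 1.44 and Tfrc at 0.50 lie farthest from 0.

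The ferritin genes differed little between the groups. Fth1 encodes the heavy chain of ferritin, which has its own ferroxidase centre, and its log2 values were 13.22, 13.15 and 13.23 with the mimic and 13.12, 13.13 and 13.13 with the control. The mimic arrays were all higher, by a log2 fold change of 0.076 with a 95% interval from -0.057 to 0.21 (limma adjusted p = 0.51). For a second, dimmer transcript cluster of Fth1 the log2 fold change was -0.11, and the mean of both clusters gave -0.019.

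Ftl1 encodes the light chain, which helps the iron core to form. Its log2 values were 12.56, 12.51 and 12.51 with the mimic and 12.64, 12.61 and 12.61 with the control. Every mimic array lay below every control array, by a log2 fold change of -0.092 with a 95% interval from -0.22 to 0.039 (limma adjusted p = 0.39). The brightest cluster, used here, was read by 1 probe set, and the cluster read by 7 gave a log2 fold change of -0.11 and another one -0.16. Ferritin genes have many near-identical copies in the genome, so both ferritin values may mix several loci.

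Neither iron sensor passed the test. Ireb2 encodes IRP2, which is degraded when iron is plentiful, and its log2 values were 10.96, 11.11 and 11.10 with the mimic and 10.78, 11.03 and 11.00 with the control. In both groups replicate 1 was the lowest array, and the groups overlapped. The log2 fold change was 0.12, with a 95% interval from -0.066 to 0.30 (limma adjusted p = 0.44). The authors' deposited table had 18 of its 22 probe sets higher, none at a p under 0.05 (0 of 22).

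Aco1 encodes IRP1, which is a cytosolic aconitase while it holds an iron-sulphur cluster and an RNA-binding protein without it. Its log2 values were 9.87, 9.74 and 9.76 with the mimic and 9.82, 10 and 9.99 with the control. The highest mimic array lay above the lowest control array. The log2 fold change was -0.14, with a 95% interval from -0.31 to 0.021 (limma adjusted p = 0.27). The authors' deposited table had 18 of its 22 probe sets lower, 5 of them at a p under 0.05. Both proteins are controlled mostly after transcription, which these arrays do not measure.

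The sequences upstream of the 2 genes that passed the test are shown for context. RefSeq windows of 300 bases (250 before and 50 after a start site, GRCm38.p6) were found for 7 of the 10 genes, in 10 windows. Only bases outside the annotated gene are printed, 5′ to 3′ in the gene's direction.
Hephl1 (chr9:15112171-15112358, minus strand): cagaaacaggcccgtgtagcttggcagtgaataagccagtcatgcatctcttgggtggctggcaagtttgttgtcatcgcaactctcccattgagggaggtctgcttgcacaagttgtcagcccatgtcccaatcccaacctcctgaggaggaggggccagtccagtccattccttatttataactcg
Tfrc (chr16:32608646-32608895, plus strand): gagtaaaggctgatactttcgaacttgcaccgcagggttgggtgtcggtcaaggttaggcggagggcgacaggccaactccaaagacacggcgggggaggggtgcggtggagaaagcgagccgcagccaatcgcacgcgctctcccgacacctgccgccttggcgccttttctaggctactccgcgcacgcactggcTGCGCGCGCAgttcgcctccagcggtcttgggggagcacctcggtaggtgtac
Both strands were searched for the hypoxia response core ACGTG, the antioxidant response element TGACNNNGC and 2 forms of the metal response element, TGCGCNC and TGCACNC. The capitals in the Tfrc sequence mark 2 overlapping matches to TGCGCNC, 1 on each strand, and ACGTG matched across the Tfrc start site. Of 32851 windows of this length, 19.6% hold ACGTG, 12.4% TGACNNNGC, 15.4% TGCGCNC and 12.6% TGCACNC. In the Hephl1 window none of the 4 was found (0 of 4), which says only that these letters are not in it.

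Around these genes, 6 further lists of iron and copper genes changed in part of their members, 5 of them in both directions and 1 with falls alone. For iron uptake, hepcidin control and iron-sulphur assembly, the only rise was lost with median centring and with a replicate block. The lists were chosen by function, although with earlier results of these arrays known. Of 20 genes of iron uptake and transport, 3 fell and 1 rose (20.0% called, median log2 fold change -0.062). Over all genes 11.7% were called, and 19.2% of the brighter ones, to which 13 of these 20 belong, so the share is near that background. Trf, the gene of transferrin, fell the most on this list, from 8.69 ± 0.0878 to 7.72 ± 0.117 (SD, n = 3), to a ratio of 0.511 (limma adjusted p = 0.00013). Slc48a1, a haem transporter of endosomes, had a log2 fold change of -0.33, and Abcg2, an exporter that accepts porphyrins, of -0.35. Mcoln1, a lysosomal channel that releases iron, rose by a log2 fold change of 0.22. Without single arrays, Trf stayed called, while Slc48a1 was lost without mimic replicate 2 (limma adjusted p = 0.052) or control replicate 3 (0.074). Abcg2 was lost without mimic replicate 1 or 2 or control replicate 2 or 3 (0.061 to 0.099), and Mcoln1 without any array (0.076 to 0.12). The list's count fell to 1 when mimic replicate 2 or control replicate 3 was left out, and to 2 for control replicate 2.

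Of 13 genes of iron chaperones, ferritin turnover and iron sensing, 2 fell and 0 rose (median -0.0074, 15.4% called). Of the 13, 12 were among the brighter genes, of which 19.2% were called, against 11.7% of all genes. The list's share lies below the former and above the latter. Epas1 encodes the hypoxia-inducible factor HIF-2α, whose transcript is itself bound by iron regulatory proteins, and fell from 8.68 ± 0.0792 to 8.16 ± 0.169 (SD, n = 3). Cisd1, the gene of an iron-sulphur protein of the outer mitochondrial membrane, had a log2 fold change of -0.42 (limma adjusted p = 0.0028). Both calls held without any single array. Ncoa4, the ferritinophagy receptor gene, and Fbxl5, which marks IRP2 for degradation, had log2 fold changes of -0.041 and -0.0037 and did not pass (limma adjusted p = 0.77 and 0.98). These last 2 were named after their values were seen.

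Hepcidin is the hormone that removes ferroportin from the cell surface. Of 16 genes that encode hepcidin or belong to its control, 3 fell and 1 rose (25.0% called, median -0.036). The share was 11.7% over all genes and 19.2% over the brighter ones, which hold 10 of these 16. Neo1, the gene of neogenin, a partner of hemojuvelin, had a log2 fold change of -0.31, and Id1, a target of BMP signalling, of -0.37. The protease gene Furin had -0.34, and Smad1, a BMP signal transducer, rose by a log2 fold change of 0.29. None of the list's 4 calls held without control replicate 3, where the count was 0 (limma adjusted p from 0.068 to 0.13), and only Id1 held without mimic replicate 3, a count of 1. Furin was also lost without mimic replicate 2 or control replicate 2 (0.087 and 0.086) and Smad1 without mimic replicate 1 or control replicate 1 (0.072 for each).

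Of 15 genes of haem synthesis and breakdown, 3 fell and 1 rose (26.7% called, median -0.041). With 13 of the 15 among the brighter genes, this stands beside 19.2% for such genes and 11.7% for all. Alad, an early enzyme of haem synthesis, fell from 9.77 ± 0.0618 to 9.30 ± 0.152 (SD, n = 3), with a ratio of 0.721 (limma adjusted p = 0.0060). The haem oxygenase genes Hmox2 and Hmox1, whose products release iron from haem, had -0.39 and -0.29. Hp, the gene of haptoglobin, which binds free haemoglobin, rose by a log2 fold change of 0.53 (limma adjusted p = 0.0070). Hmox1 was lost without any array but mimic replicate 1 (0.054 to 0.089), and the other 3 held without any single array.

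Of 21 measured genes of iron-sulphur cluster assembly, 1 fell and 1 rose (9.52% called, median 0.043). This share lies below the 11.7% of all genes and the 19.2% of the brighter ones, to which 18 of the 21 belong. Iscu, the scaffold on which clusters are built, had a log2 fold change of -0.42 (limma adjusted p = 0.0077) from a transcript cluster with 1 probe set. A second transcript cluster with 4 probe sets gave -0.40. When all transcript clusters were tested, the first passed (limma adjusted p = 0.036) and the second did not (0.090). Lyrm4, which stabilises the cysteine desulphurase, rose by a log2 fold change of 0.24. The call of Lyrm4 was lost without mimic or control replicate 2 or 3 (limma adjusted p from 0.082 to 0.13), which left the list's count at 1.

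The ferroxidases depend on copper, and of 23 measured genes of copper supply and copper enzymes 5 fell and 4 rose (39.1% called, median -0.030), with 20 of the 23 no lower than the median of gene means, where 19.2% of genes were called. Aoc3, a copper amine oxidase, fell from 8.68 ± 0.0321 to 8.13 ± 0.0509 (SD, n = 3; limma adjusted p = 0.00054), and Slc31a1, the copper importer CTR1, had a log2 fold change of -0.29. The metallothionein genes Mt1 and Mt2, whose products bind copper and zinc, rose by log2 fold changes of 0.43 and 0.33. The remaining 5 were named after their values were seen. Atp7a, which pumps copper into the secretory pathway where ferroxidases receive it, rose by 0.40, and Dbh, a dim gene, by 0.43. Cox17, a mitochondrial copper chaperone, Sod3, the extracellular superoxide dismutase, and Lox, lysyl oxidase, had log2 fold changes of -0.33, -0.41 and -0.25. Aoc3 and Mt1 stayed called without any single array. Slc31a1 was lost without control replicate 3 (limma adjusted p = 0.058), Mt2 without mimic or control replicate 3 (0.054 and 0.064), Atp7a without mimic replicate 1 or 3 (0.054 and 0.052) and Cox17 without mimic replicate 2 or 3 (0.055 and 0.056). Sod3 was lost without any control array (0.058 to 0.072), Dbh without mimic replicate 1 or 2 or control replicate 2 or 3 (0.11 to 0.16) and Lox without any array (0.053 to 0.19). The list's count was 5 without mimic replicate 3 and 4 without control replicate 3.

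**Figure D4:**
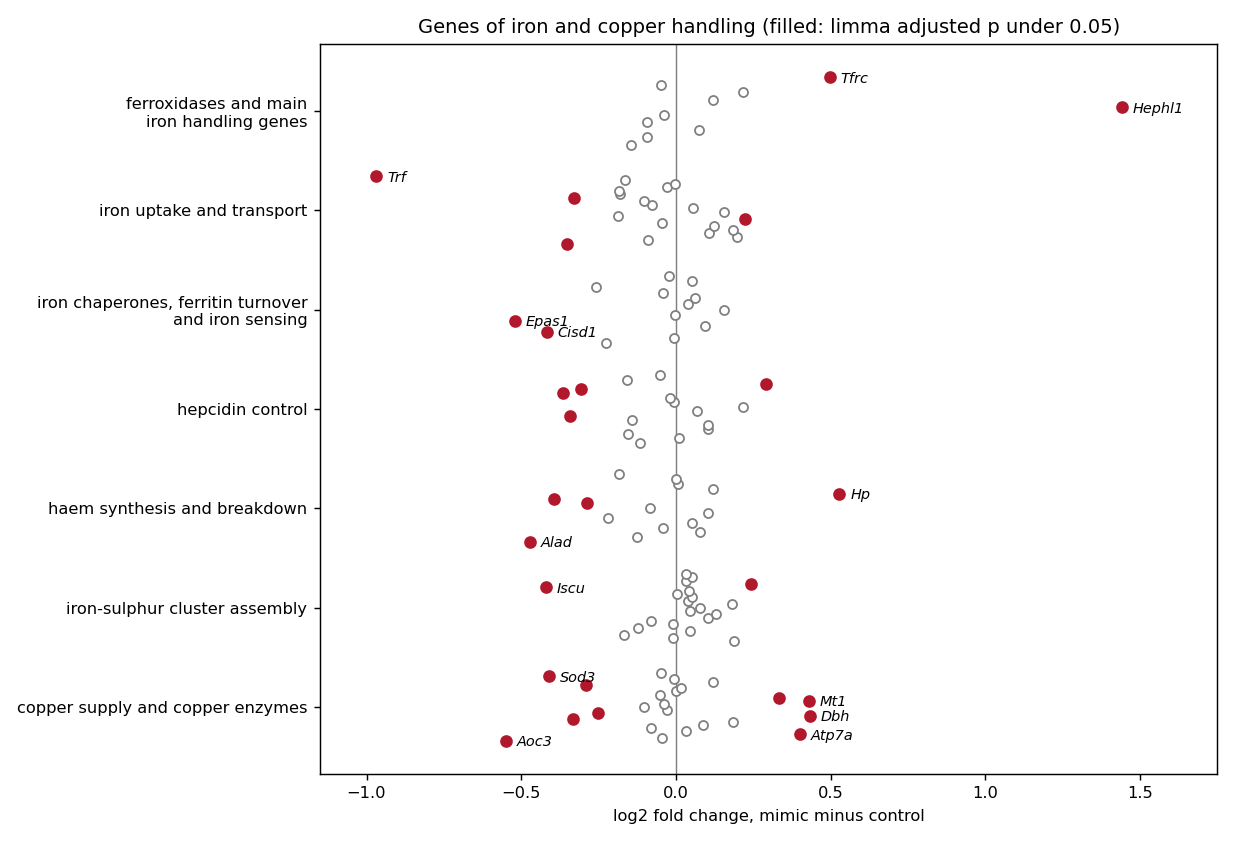
Log2 fold change, miR-15a-3p mimic minus control, of each measured gene of the 10 described genes and the 6 wider lists; filled points passed a limma adjusted p under 0.05, and those beyond 0.4 in size are named. Called genes lie on both sides of 0 in 5 of the 6 wider lists, Trf is the farthest to the left at -0.97 and Hephl1 the farthest to the right.

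Over the 6 arrays, genes were ranked by how close their centred log2 values lay to those of Hephl1. Symbols of the Gm, Rik and LOC type were left out. The closest was Car3, a carbonic anhydrase, at a Euclidean distance of 0.310. Next were Tnfrsf9, a co-stimulatory receptor of T cells, at 0.410, and Spa17, a sperm surface protein gene, at 0.461. The log2 fold changes of Car3, Tnfrsf9 and Spa17 were 1.3, 1.32 and 1.15. Each thus had a step between the groups of nearly the size of that of Hephl1. With 6 arrays in 2 groups, such a distance mostly reflects the size of that step.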

How the data were processed

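RNA of 6 samples was amplified, labelled with biotin and hybridised to mouse gene arrays, per the labels' protocols. The log2 values of 35556 transcript clusters were made by the authors with tools that the submitters' processing notes list as Partek, Affymetrix Expression Console, RMA and MAS5, without version or order. The annotation build was not stated in those sources. For 241419 exon-level probe sets, the authors' deposited table holds a ratio, a p-value that is not adjusted, and scores such as a signed fold, F and sums of squares, per the file headers. Its F values imply 1.5 error per model degree of freedom, which 2 groups of 3 arrays do not give. Its ratios may therefore weight the arrays differently, and which arrays entered them is not stated. A smaller deposited file holds the 1768 of these whose signed fold was at most -2 and whose p-value was under 0.05.

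A cluster took the symbol of the exon-level probe sets numbered between it and the next cluster. RefSeq (GRCm38.p6) gave current symbols by accession, symbol or synonym: 24115 clusters had 1 symbol, 834 several and 10607 none. The brightest cluster stood for a gene, leaving 21124 genes. The direction of the cluster and the median exon-level ratio matched in 10 of 10 iron genes. Both read the same comparison, so this match is no independent check of the names.

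The test was limma (lmFit and eBayes, version 3.58.1, R 4.3.3), two-sided, Benjamini-Hochberg over all 21124 genes at 0.05, without filter or block. The code was tested on simulated data. Members and lists were chosen with earlier results of these data known. Of the lists, Fdx2, Sco2, Loxl3 and Hbb-b1 had no cluster with a single symbol. Named were the 10 genes, and up to 4 genes per list with the smallest adjusted p among those called. The 3 genes nearest to Hephl1, symbols of the Gm, Rik and LOC type left out, were also named. Exceptions are marked. Alternatives were filters on dim genes, quantile normalization, median centring, a replicate block, all clusters tested, mean of clusters, an intensity trend, and each array left out.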

Additional observations from a re-analysis of the deposited data

How the results depend on the processing

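Over 38 named genes and up to 14 alternatives, 452 of 528 values kept their direction and side of the threshold, 73 lost the call, 1 gained it (Slc11a2, above) and 2 turned direction, neither of them called: Slc40a1, which ran from -0.13 (without control replicate 1) to 0.070 (without mimic replicate 2), and Fth1, -0.019 in the mean of its clusters. Hephl1 and Tfrc remained the only called genes of the 10 in each setting that kept both; the filter at the median left out Hephl1. The count of all changed genes (2476) was 1379 when all transcript clusters were tested, and between 1280 and 2057 with 1 array left out (1280 without control replicate 3, 1547 without mimic replicate 3). Testing all clusters gave 2 called genes for iron uptake, 1 for hepcidin control, 1 for iron-sulphur assembly and 5 for copper. Testing genes at or above the median gave 4 for iron chaperones, and median centring gave 1 for iron-sulphur assembly. With 1 array left out the counts ran from 1 to 3 for iron uptake, 2 to 3 for iron chaperones, 0 to 3 for hepcidin control, 3 to 4 for haem, 1 to 2 for iron-sulphur assembly, 4 to 7 for copper and 2 to 2 for the 10 genes. The fits without 1 array have fewer samples, and the fit of all clusters has more tests; the cause of the other shifts was not tested.

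The deviations of same-numbered arrays from their group means correlated with -0.05, -0.28 and 0.04, none of them clearly positive. With so few arrays a group, these values cannot decide whether same-numbered arrays were handled together. The labels give only the replicate number and do not state this. With the number as a replicate block, 2 genes were called for hepcidin control and 1 for iron-sulphur assembly. Without detection calls, signal over background is unknown, which limits Hephl1 and Heph most.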
